A study of Mus musculus with 24 samples.

Results

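The genes Nipal1, Arhgef3, Arl4d, Tbc1d16, Chp1, Ghr, Adora1, Gdpd1 and Bcat1, which differ in function, were followed in mpkCCD cells, a mouse cortical collecting duct line, over 24 h of exposure to the vasopressin analogue dDAVP. They are 9 of the 54432 genes in the tables, found by matching each Ensembl identifier to its GENCODE M21 symbol. They were chosen by their measured RNA in these same libraries, which was higher with dDAVP than with vehicle at all 4 times, so the height of that difference is described below and carries no p-value. All 9 passed the filter on low counts, with 78 to 3225 estimated counts in any 1 library.

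RNA sequencing covered 8 groups of 3 libraries, cells given dDAVP for 3, 6, 12 or 24 h and cells given vehicle for the same times. All groups were wild-type cells of C57BL/6 origin at passage 10 to 11, held for 6 days on permeable filters and then for 24 h in minimal medium, with dDAVP or vehicle added on the basolateral side. The labels do not say whether replicates were separate cultures, so p-values here rest on a spread between libraries that may be technical only. The cells are 1 immortalised line, so group differences are between dishes of that line and not between animals. Library totals ran from 17.25 to 27.64 M (mega) estimated counts. Markers of the principal cell were present, with 7 of 11 at a mean of at least 1 TPM (the authors' level per transcript length and library) and a summed level of 130 to 196 TPM in dDAVP libraries and 79.3 to 110 TPM in vehicle libraries. Aqp2 alone made 56.3 to 101 TPM of that sum with dDAVP and 1.78 to 4.04 TPM with vehicle, and the other 10 markers summed to 70.9 to 102 TPM with dDAVP and 76.3 to 107 TPM with vehicle. Of these 10, Scnn1g, a subunit of the epithelial sodium channel, was lower with dDAVP by edgeR at 3 h (log2 effect -0.96, adjusted p = 0.0109) and 6 h (-0.71, adjusted p = 0.0183). At 6 h, when 38.1% of all tested genes passed, Tfap2b was lower (-1.35, adjusted p = 0.0191) and Gata3 higher (0.49, adjusted p = 0.0183). With the receptor share described below in the model, neither passed at 6 h (Tfap2b -0.45, adjusted p = 0.932, and Gata3 0.14, adjusted p = 0.916). In that fit Scnn1g passed at both times (-1.09 and -0.99, adjusted p = 0.000611 and 0.0298), and Avpr2 was lower at 3 h (-0.52, adjusted p = 0.00059). Summed markers of intercalated cells, proximal tubule, thick ascending limb with distal tubule, and endothelial, stromal and immune cells stayed at or below 11 TPM in dDAVP libraries and 17.8 TPM in vehicle libraries. Aqp2, the water channel that vasopressin induces in principal cells, averaged 119 ± 8.51, 199 ± 28.3, 136 ± 9.18 and 224 ± 10.7 CPM (counts scaled by TMM library size) with dDAVP at 3, 6, 12 and 24 h, against 5.74 ± 0.722, 5.07 ± 0.966, 6.93 ± 1.45 and 5.49 ± 1.03 CPM with vehicle (SD, n = 3 each).

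In the collecting duct, vasopressin binds the V2 receptor, which raises cyclic AMP and activates protein kinase A. That signal moves the water channel aquaporin-2 to the apical membrane and, over hours, changes transcription, in part through the factor CREB at cyclic AMP response elements in promoters. The genes described here sit in steps beside that route. They encode a magnesium transporter, regulators of small GTPases that steer the cytoskeleton and vesicle traffic, a calcium-binding cofactor of sodium-proton exchangers, receptors for growth hormone and for adenosine, and enzymes of lipid and amino acid metabolism.

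Promoter sequences are shown because vasopressin signals through cyclic AMP. RefSeq windows on GRCm38.p6, from 250 bases before to 50 bases after a start site, were found for 8 of the 9 genes by symbol, 14 windows in all; Tbc1d16 is named only. Each was searched on both strands for the full response element TGACGTCA and its half-site TGACG, which lies inside the full element. The full element was found in 1 of the 14 windows, that of Arl4d, 26 bases before the start site, and in 588 of all 32851 RefSeq windows (1.79%). The half-site was found in 5 of the 14 windows, belonging to Arl4d, Chp1, Gdpd1 and Arhgef3, and in 6837 of all windows (20.8%). The 3 windows printed here run 5′ to 3′ on the strand of the gene, with matches in capitals. They are Arl4d at chr11:101665291-101665590 (plus strand) for its full element, Chp1 at chr2:119547457-119547756 (plus strand) with a half-site 66 bases before the start, and Gdpd1 at chr11:87074088-87074387 (minus strand) with a half-site 217 bases before the start.
Arl4d: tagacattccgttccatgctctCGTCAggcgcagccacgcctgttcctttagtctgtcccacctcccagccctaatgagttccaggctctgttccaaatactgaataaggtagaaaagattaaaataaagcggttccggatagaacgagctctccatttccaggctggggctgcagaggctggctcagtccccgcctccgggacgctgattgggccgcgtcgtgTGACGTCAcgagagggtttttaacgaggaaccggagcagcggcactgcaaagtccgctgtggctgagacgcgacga
Chp1: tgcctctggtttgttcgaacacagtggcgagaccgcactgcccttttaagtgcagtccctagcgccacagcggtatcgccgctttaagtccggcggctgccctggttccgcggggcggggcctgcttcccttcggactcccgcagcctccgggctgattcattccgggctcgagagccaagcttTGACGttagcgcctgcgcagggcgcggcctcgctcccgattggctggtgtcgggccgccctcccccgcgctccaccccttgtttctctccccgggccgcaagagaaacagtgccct
Gdpd1: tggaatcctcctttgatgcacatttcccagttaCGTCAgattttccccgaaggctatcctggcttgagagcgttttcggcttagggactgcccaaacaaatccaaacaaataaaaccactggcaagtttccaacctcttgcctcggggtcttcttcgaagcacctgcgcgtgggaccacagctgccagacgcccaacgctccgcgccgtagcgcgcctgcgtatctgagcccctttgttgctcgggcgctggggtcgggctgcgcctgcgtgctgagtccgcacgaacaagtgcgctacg
In the Arl4d window the long run of capitals is the palindromic full element, and the shorter run 228 bases before the start is a separate half-site on the other strand. Arhgef3 has 4 windows, and half-sites lie 245 bases before the start of the first and 5 bases before the start of the third. The windows of Nipal1, Ghr, Adora1 and Bcat1 hold neither form. Further motifs were searched in the same way. AAAGGTCA, the element bound by NR4A orphan receptors, was in none of the 14 windows and in 495 of all windows (1.51%). TGANTCA, a pattern wider than the AP-1 element because N stood for any base, was in 1 window each of Adora1, Chp1, Bcat1 and Ghr. It was in 2565 of all windows (7.81%). The Chp1 match reads TGATTCA, so these are not counts of AP-1 elements. These are matches of letters only, and binding was not measured.

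With dDAVP the lowest library lay above the highest vehicle library of the same time in CPM for each of the 9 genes at each of the 4 times, as the plot of CPM in each library shows. Of all tested genes 4.04% did so at 3 h, 29.8% at 6 h, 2.47% at 12 h and 4.25% at 24 h. That separation at all 4 times held for 90 of 29743 tested genes (0.303%), and the choice of the genes fixed it here. Among those 90, ordered by the mean of the 4 log2 effects, Arhgef3 stood 17th, Nipal1 19th, Arl4d 22nd, Tbc1d16 29th, Chp1 32nd, Gdpd1 36th, Adora1 45th, Ghr 51st and Bcat1 69th. Mean effects over the 4 times were 2.13-fold for Arhgef3, 2.07-fold for Nipal1, 1.97-fold for Arl4d, 1.83-fold for Tbc1d16, 1.76-fold for Chp1, 1.68-fold for Gdpd1, 1.57-fold for Adora1, 1.55-fold for Ghr and 1.42-fold for Bcat1. Aqp2 was first, at 20.8, 39.2, 19.8 and 40.7-fold by time. The median log2 effect of the 9 genes was 1.05, 1.05, 0.55 and 0.45 at 3, 6, 12 and 24 h. Over all genes tested the median was -0.14, -0.39, -0.05 and -0.035, and over the 12747 genes with at least 5 CPM in a group it was 0.18, 0.32, 0.069 and 0.002.

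**Figure D1:**
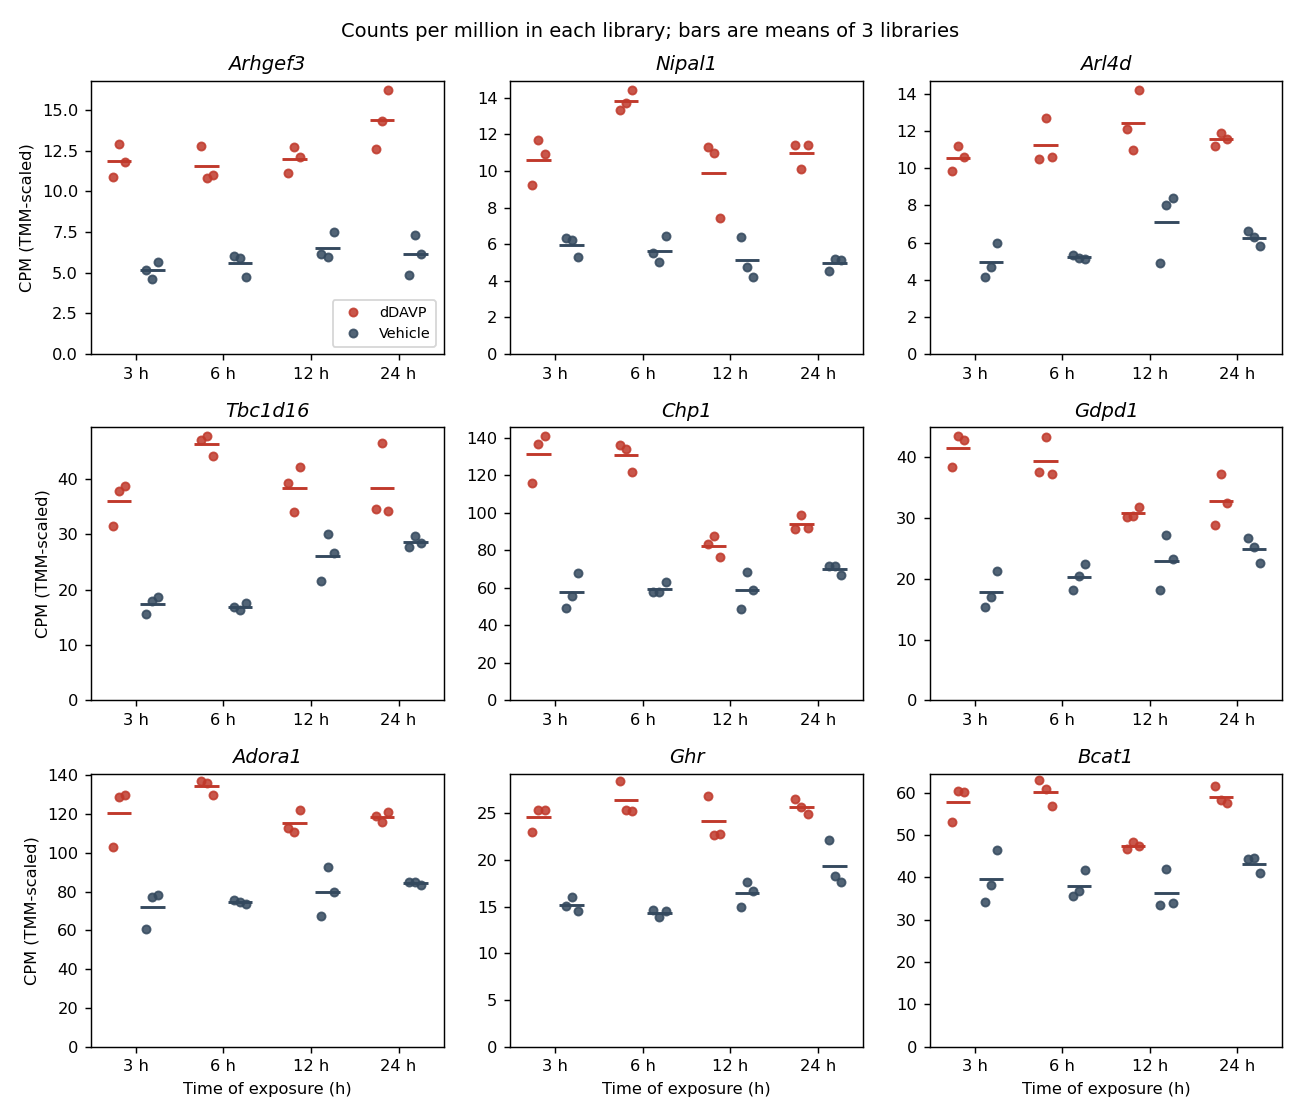
CPM (TMM-scaled, linear axis from 0) of each gene in each library by time in hours, with dDAVP libraries left of vehicle libraries and bars at the means of 3 libraries. In every panel the 3 dDAVP points lie above the 3 vehicle points of the same time, with the narrowest gap, a ratio of 1.08 between the lowest dDAVP and the highest vehicle library, for Gdpd1 at 24 h.

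The genes around them were tested as 9 lists, 1 for the pathway or family of each gene, with 189 tested genes apart from the 9. By edgeR 2 of the 189 were higher and none lower at 3 h, 82 were higher and 10 lower at 6 h, and none passed at 12 or 24 h. At an unadjusted p under 0.05 the counts were 39, 120, 11 and 3 at 3, 6, 12 and 24 h, and DESeq2 called 1, 75, 0 and 0. At 6 h 38.1% of all tested genes passed in either direction by edgeR, so the lists stand beside a high background at that time.

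Nipal1 (ENSMUSG00000067219, chromosome 5, 72647795 to 72671078, plus strand, GRCm38) encodes a magnesium transporter of the NIPA family. At 3 h its libraries had 9.22, 11.7 and 10.9 CPM with dDAVP, against 6.35, 6.22 and 5.32 CPM with vehicle, and at 6 h 13.3, 13.7 and 14.4 CPM with dDAVP, against 5.51, 5 and 6.43 CPM with vehicle. At 12 h they had 11.3, 11 and 7.4 CPM with dDAVP, against 6.4, 4.76 and 4.22 CPM with vehicle, and at 24 h 11.4, 10.1 and 11.4 CPM with dDAVP, against 4.55, 5.21 and 5.11 CPM with vehicle. The groups never overlapped, but 1 dDAVP library at 12 h came close to the highest vehicle library. The log2 effect was 0.83 ± 0.175, 1.29 ± 0.177, 0.94 ± 0.178 and 1.14 ± 0.178 (SE) at 3, 6, 12 and 24 h. Of 17 other genes of magnesium transport tested, none passed the threshold at 3, 12 or 24 h by edgeR, and 5 were higher and 1 lower at 6 h. Of the closest relatives, Nipal3 averaged 13.3 ± 1.71 CPM with dDAVP and 11.9 ± 2.03 CPM with vehicle at 3 h, and Nipa2 45.9 ± 6.73 CPM with dDAVP and 41.6 ± 7.58 CPM with vehicle (SD, n = 3 each), with log2 effects of 0.16 and 0.14 that did not pass the test. At 6 h their relatives Nipa1 (log2 effect 0.53, adjusted p = 0.0424) and Nipal4 (0.41, adjusted p = 0.0268) were higher and Nipal2 (-0.90, adjusted p = 0.0188) was lower.

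Arhgef3 (ENSMUSG00000021895, chromosome 14, 27114899 to 27403911, plus strand) encodes an exchange factor that switches on RhoA and RhoB, the GTPases that build contractile actin. At 3 h its libraries had 10.9, 12.9 and 11.8 CPM with dDAVP, against 5.16, 4.61 and 5.64 CPM with vehicle, and at 6 h 12.8, 10.8 and 11 CPM with dDAVP, against 6.03, 5.92 and 4.76 CPM with vehicle. At 12 h they had 11.1, 12.7 and 12.1 CPM with dDAVP, against 6.16, 5.98 and 7.47 CPM with vehicle, and at 24 h 12.6, 14.3 and 16.2 CPM with dDAVP, against 4.84, 7.34 and 6.17 CPM with vehicle. The gap between treatments was wide at every time, and the highest library of all was a 24 h dDAVP library. Log2 effects were 1.20 ± 0.164, 1.05 ± 0.164, 0.87 ± 0.162 and 1.23 ± 0.163 (SE), the largest mean effect of the 9 genes. Arhgef1, another RhoA exchange factor, was higher at 6 h, with a log2 effect of 0.31 (adjusted p = 0.0426).

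Arl4d (ENSMUSG00000034936, chromosome 11, 101665541 to 101667832, plus strand) encodes a GTPase of the ARF family that recruits ARF exchange factors to the plasma membrane. At 3 h its libraries had 9.88, 11.2 and 10.6 CPM with dDAVP, against 4.17, 4.66 and 5.97 CPM with vehicle, and at 6 h 10.5, 12.7 and 10.6 CPM with dDAVP, against 5.35, 5.15 and 5.09 CPM with vehicle. At 12 h they had 12.1, 11 and 14.2 CPM with dDAVP, against 4.91, 8.01 and 8.39 CPM with vehicle, and at 24 h 11.2, 11.9 and 11.6 CPM with dDAVP, against 6.62, 6.32 and 5.81 CPM with vehicle. Vehicle libraries were most spread at 12 h, and even there stayed under every dDAVP library. On the log2 scale the difference was 1.10 ± 0.178, 1.11 ± 0.178, 0.81 ± 0.175 and 0.89 ± 0.176 (SE). Of its paralogues, Arl4c had a log2 effect of 0.39 at 3 h that did not pass and of 0.45 at 6 h that did (adjusted p = 0.021), and Arl4a had 0.13 and 0.23, neither of which passed. Of 22 other tested ARF and ARL GTPases, 15 were higher at 6 h, none lower, and none passed at the other 3 times.

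Tbc1d16 (ENSMUSG00000039976, chromosome 11, 119143045 to 119228499, minus strand) encodes a Rab GTPase-activating protein, in human cells for Rab4A, which sends endocytosed cargo back to the cell surface. At 3 h its libraries had 31.5, 37.8 and 38.7 CPM with dDAVP, against 15.6, 18 and 18.6 CPM with vehicle, and at 6 h 47, 47.7 and 44.1 CPM with dDAVP, against 16.9, 16.3 and 17.6 CPM with vehicle. At 12 h they had 39.2, 34 and 42.1 CPM with dDAVP, against 21.6, 30.1 and 26.7 CPM with vehicle, and at 24 h 34.5, 46.5 and 34.2 CPM with dDAVP, against 27.7, 29.7 and 28.4 CPM with vehicle. Treated libraries stayed between 31.5 and 47.7 CPM throughout, and the gap was narrower at the later times, when the vehicle libraries were higher. The log2 effect was 1.05 ± 0.131, 1.45 ± 0.132, 0.56 ± 0.129 and 0.42 ± 0.129 (SE), the largest of any of the 9 genes at 6 h.

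Among 31 other tested TBC proteins and recycling Rabs, Tbc1d1 and Rab4a were the only genes higher at 3 h by edgeR, and 14 were higher and none lower at 6 h. Tbc1d1, a Rab GTPase-activating protein of glucose transporter traffic, averaged 94.5 ± 7.65 CPM with dDAVP and 63 ± 9.11 CPM with vehicle at 3 h (SD, n = 3 each), a log2 effect of 0.59 (adjusted p = 0.0125), and 0.69 at 6 h (adjusted p = 0.00152). Rab4a itself averaged 26.9 ± 2.35 CPM with dDAVP and 18.4 ± 1.76 CPM with vehicle at 3 h (SD, n = 3 each), a log2 effect of 0.55 (adjusted p = 0.0296), and 0.57 at 6 h (adjusted p = 0.0102). At 12 and 24 h their log2 effects were 0.33 and 0.22 for Tbc1d1 and 0.22 and 0.052 for Rab4a, and none of these passed. Tbc1d15, the relative of Tbc1d16 that acts on Rab7, had 0.20 at 3 h, which did not pass, and 0.33 at 6 h (adjusted p = 0.0491).

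Chp1 (ENSMUSG00000014077, chromosome 2, 119547697 to 119587027, plus strand) encodes a calcineurin B homologous protein, an obligate cofactor of plasma membrane sodium-proton exchangers. At 3 h its libraries had 116, 137 and 141 CPM with dDAVP, against 49.3, 55.6 and 67.9 CPM with vehicle, and at 6 h 136, 134 and 122 CPM with dDAVP, against 57.6, 57.7 and 63.3 CPM with vehicle. At 12 h they had 83.5, 87.5 and 76.6 CPM with dDAVP, against 48.8, 68.4 and 58.8 CPM with vehicle, and at 24 h 91.5, 99 and 92.1 CPM with dDAVP, against 71.7, 71.5 and 67.1 CPM with vehicle. The 6 treated libraries of the early times lay above all 6 of the late times, whereas the vehicle libraries of early and late times overlapped. Log2 effects by time were 1.19 ± 0.12, 1.14 ± 0.12, 0.49 ± 0.119 and 0.43 ± 0.119 (SE). Of 17 other tested genes of this group, which holds the exchangers and their partners, 8 were higher and 2 lower at 6 h and none passed at 3, 12 or 24 h.

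Ghr (ENSMUSG00000055737, chromosome 15, 3317760 to 3583492, minus strand) encodes the growth hormone receptor, which signals through JAK2 and STAT5. Its libraries had 23, 25.4 and 25.4 CPM with dDAVP at 3 h, against 15.1, 16 and 14.5 CPM with vehicle, and 26.5, 25.7 and 24.9 CPM with dDAVP at 24 h, against 22.1, 18.3 and 17.6 CPM with vehicle. All 12 treated libraries lay between 22.7 and 28.5 CPM and all 12 vehicle libraries between 13.9 and 22.1 CPM. The log2 effect was 0.69 ± 0.11, 0.88 ± 0.111, 0.55 ± 0.11 and 0.41 ± 0.109 (SE). Of 22 other tested genes of growth hormone signalling, 8 were higher and 3 lower at 6 h and none passed at the other times. Irs2 (log2 effect 0.72, adjusted p = 0.00874), Jak2 (0.85, adjusted p = 0.0179) and Stat5b (0.41, adjusted p = 0.0181) were among those higher at 6 h. Stat5a had 0.29 and did not pass, and Jak2 had -0.60 at 12 h, which did not pass. The 3 lower at 6 h were Prlr (-1.31, adjusted p = 0.0188), Igfbp4 (-0.97, adjusted p = 0.0192) and Igf1 (-1.38, adjusted p = 0.0222).

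Adora1 (ENSMUSG00000042429, chromosome 1, 134199223 to 134235431, minus strand) encodes the A1 adenosine receptor, which couples to Gi and lowers cyclic AMP. Its libraries had 103, 129 and 130 CPM with dDAVP at 3 h, against 60.9, 77.2 and 78.5 CPM with vehicle, and 119, 116 and 121 CPM with dDAVP at 24 h, against 85.1, 85 and 83.4 CPM with vehicle. All 12 treated libraries lay between 103 and 137 CPM and all 12 vehicle libraries between 60.9 and 92.7 CPM. On the log2 scale the difference was 0.74 ± 0.113, 0.85 ± 0.114, 0.53 ± 0.113 and 0.49 ± 0.113 (SE). The other 3 adenosine receptor genes were measured at low levels, with group means of at most 1.01 CPM for Adora2a, 1.39 CPM for Adora2b and 5.13 CPM for Adora3, and of these Adora2a alone passed at any time, lower at 6 h (log2 effect -1.50, adjusted p = 0.0416). Of 20 other tested genes of adenosine signalling, 2 were higher and 3 lower at 6 h and none passed otherwise. Adora1 shares 1162 exonic bases with Mybph on the opposite strand, and the strand used in counting is not given in the sources used here. Mybph itself held at most 0.197 CPM in any dDAVP library and 0.462 CPM in any vehicle library. Smaller overlaps with noncoding genes were 454 exonic bases for Tbc1d16 and 337 for Bcat1, both on the opposite strand, and 92 on the same strand for Arhgef3.

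Gdpd1 (ENSMUSG00000061666, chromosome 11, 87033867 to 87074062, minus strand) encodes a lysophospholipase D that makes lysophosphatidic acid and N-acylethanolamines. At 3 h its libraries had 38.4, 43.5 and 42.9 CPM with dDAVP, against 15.4, 17 and 21.3 CPM with vehicle, and at 6 h 37.5, 43.3 and 37.3 CPM with dDAVP, against 18.1, 20.4 and 22.5 CPM with vehicle. At 12 h they had 30.2, 30.3 and 31.8 CPM with dDAVP, against 18.2, 27.2 and 23.3 CPM with vehicle, and at 24 h 28.8, 37.3 and 32.4 CPM with dDAVP, against 26.7, 25.2 and 22.6 CPM with vehicle. At 24 h the lowest treated library lay just above the highest vehicle library. Log2 effects were 1.22 ± 0.139, 0.95 ± 0.138, 0.43 ± 0.138 and 0.40 ± 0.137 (SE), the largest of any of the 9 genes at 3 h and the smallest at 24 h. Of 10 other tested genes of its group, 3 were higher and 1 lower at 6 h and none passed otherwise. The paralogue Gdpd3 had log2 effects of 0.16 at 3 h, which did not pass, and 0.44 at 6 h (adjusted p = 0.0258).

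Bcat1 (ENSMUSG00000030268, chromosome 6, 144993835 to 145076184, minus strand) encodes the cytosolic aminotransferase of leucine, isoleucine and valine. Its libraries had 53, 60.4 and 60.1 CPM with dDAVP at 3 h, against 34.3, 38.2 and 46.4 CPM with vehicle, and 61.5, 58.3 and 57.6 CPM with dDAVP at 24 h, against 44.3, 44.5 and 41.1 CPM with vehicle. The highest vehicle library of all, with 46.4 CPM at 3 h, lay just under the lowest treated library, with 46.7 CPM at 12 h. The log2 effect was 0.55 ± 0.109, 0.66 ± 0.11, 0.38 ± 0.11 and 0.45 ± 0.109 (SE), the smallest mean effect of the 9 genes. Its mitochondrial paralogue Bcat2 had 0.17 at 3 h, which did not pass, 0.28 at 6 h (adjusted p = 0.0484) and -0.11 at 24 h. Of 26 other tested genes of branched-chain amino acid metabolism, 12 were higher at 6 h, none lower, and none passed at 3, 12 or 24 h. Pcca, a subunit of propionyl-CoA carboxylase, was among the 12, with a log2 effect of 0.69 (adjusted p = 0.00368).

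Whether the effect depended on time was tested apart from its height, with the reservation that choosing genes higher at all 4 times favours genes whose effect does not fade. By edgeR's F test over the 4 times the effect depended on time for Tbc1d16 (adjusted p = 0.03) and Chp1 (adjusted p = 0.0328), 2 of the 9 genes, beside 102 of all 29743 genes (0.343%). Gdpd1 had an adjusted p of 0.0758. The other 6 genes had adjusted p-values from 0.648 for Ghr to 0.808 for Arl4d. The log2 effect at 24 h minus that at 3 h was -0.82 for Gdpd1 (95% confidence interval -1.22 to -0.42), -0.77 for Chp1 (-1.11 to -0.42) and -0.63 for Tbc1d16 (-1.0 to -0.25), with adjusted p-values of 0.259, 0.188 and 0.605, and 6 of all genes (0.0202%) passed that comparison. For Nipal1 the difference was 0.32 (-0.19 to 0.83), for Arhgef3 0.026 (-0.45 to 0.50), for Arl4d -0.22 (-0.73 to 0.30), for Ghr -0.28 (-0.60 to 0.036), for Adora1 -0.25 (-0.58 to 0.077) and for Bcat1 -0.095 (-0.41 to 0.22). The intervals of these 6 genes include 0. The calls were sensitive to single libraries: with each of the 24 libraries left out in turn, Tbc1d16 passed in 6 of 24 fits (adjusted p 0.00756 to 0.201) and Chp1 in 5 of 24 (0.0128 to 0.224). Over the same fits the 24 h minus 3 h difference stayed between -0.76 and -0.52 for Tbc1d16, between -0.86 and -0.67 for Chp1 and between -0.91 and -0.72 for Gdpd1.

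Changes over time were also tested within each treatment. Chp1 changed over time within treated cells (adjusted p = 0.00138, beside 2.28% of all genes), where it fell by 0.67 on the log2 scale at 12 h against 3 h (adjusted p = 0.0029) and by 0.48 at 24 h (adjusted p = 0.041). In vehicle Chp1 was 0.025 higher at 12 h and 0.28 higher at 24 h, and neither passed. Tbc1d16 changed over time within vehicle (adjusted p = 0.00066, beside 10.1% of all genes), where it rose by 0.59 at 12 h (adjusted p = 0.0329) and by 0.72 at 24 h against 3 h (adjusted p = 0.00185). In treated cells Tbc1d16 was 0.094 and 0.091 higher at those times, and neither passed. Gdpd1 had -0.44 and -0.34 in treated cells at 12 and 24 h and 0.35 and 0.47 in vehicle. Of these the vehicle value at 24 h passed (adjusted p = 0.0163), but the F test of Gdpd1 over time in vehicle did not (adjusted p = 0.0769). Ghr, like Tbc1d16, changed over time in vehicle (adjusted p = 0.0443), being 0.35 higher at 24 h than at 3 h (adjusted p = 0.0217). The share of all genes that passed each step against 3 h was not counted, so these steps have no background beside them. Leaving out any 1 of 21 libraries ended the call of the F test for Ghr over time in vehicle. By the same test Chp1 in treated cells and Tbc1d16 in vehicle passed in all 24 such fits. Bcat1 in treated cells was lowest at 12 h, 0.28 below 3 h, and this did not pass (adjusted p = 0.355).

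**Figure D2:**
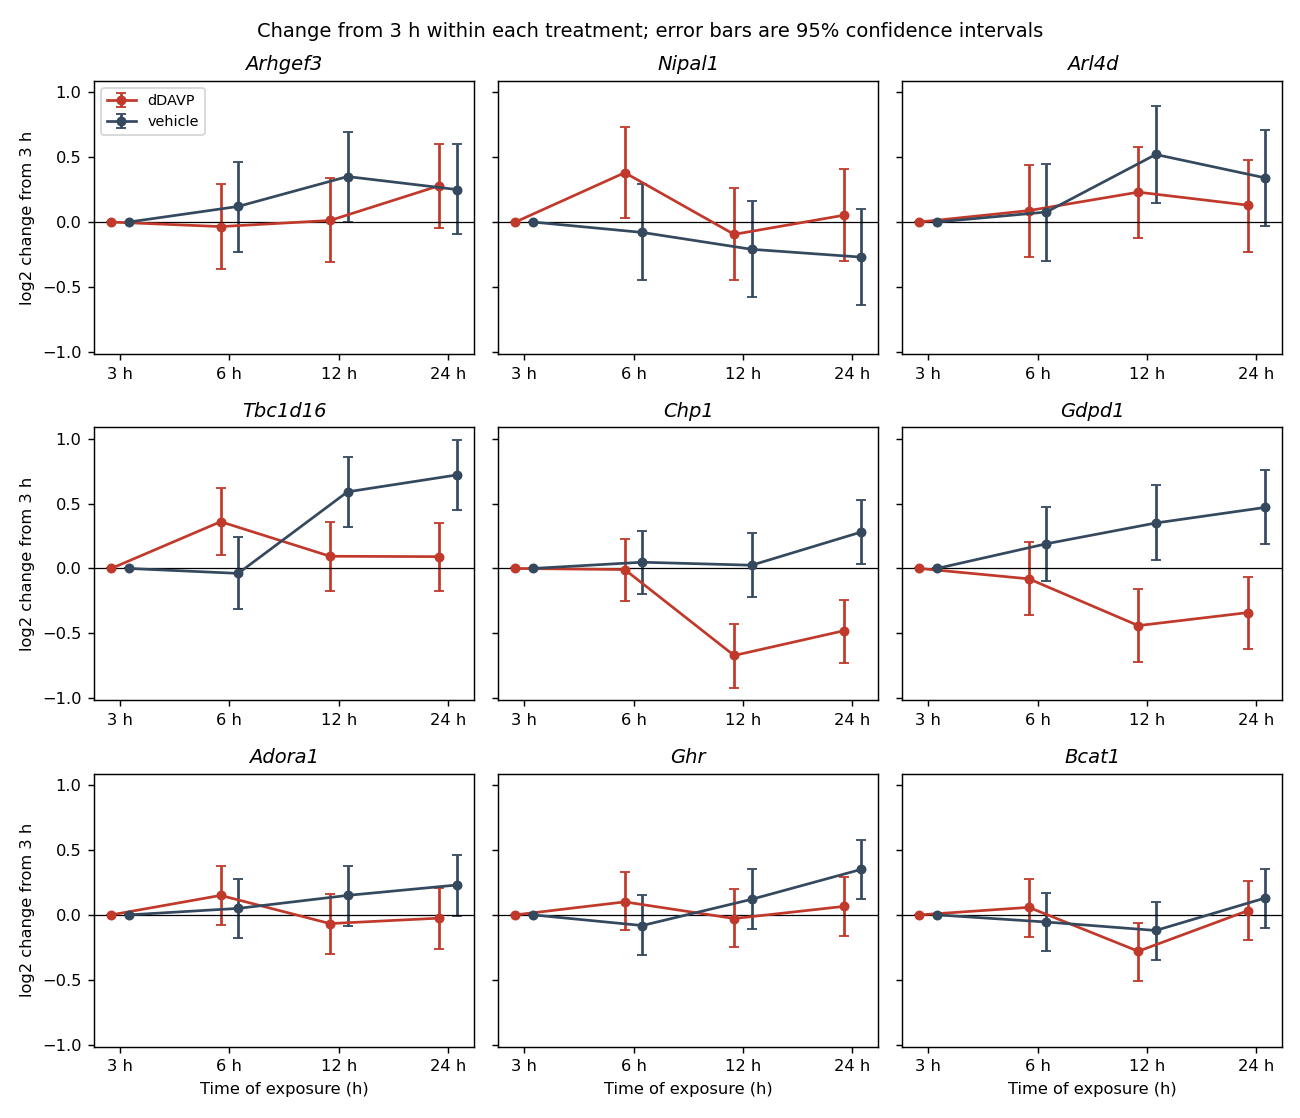
Log2 change of each gene from its own 3 h level within dDAVP cells and within vehicle cells, by time in hours, from the edgeR fit, with 95% confidence intervals. The Chp1 line of dDAVP cells drops to -0.67 at 12 h while its vehicle line stays near 0, and the Tbc1d16 line of vehicle cells climbs to 0.72 at 24 h while its dDAVP line ends at 0.091.

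A measure of library composition was lower on average with dDAVP at each time, but single libraries of the treatments were apart at 6 h only. It is the fraction of a library's counts that fell in 1459 genes of olfactory and vomeronasal receptors, a group best known from sensory neurons. This share averaged 0.374 ± 0.121%, 0.196 ± 0.0727%, 0.335 ± 0.0525% and 0.201 ± 0.0442% with dDAVP at 3, 6, 12 and 24 h. With vehicle it averaged 0.629 ± 0.257%, 0.526 ± 0.0728%, 0.477 ± 0.285% and 0.226 ± 0.0656% (SD, n = 3 each). With the log2 share in the model, the effects at 6 h were 1.46 for Nipal1, 1.07 for Arhgef3, 0.73 for Arl4d, 1.12 for Tbc1d16, 0.81 for Chp1, 0.77 for Ghr, 0.56 for Adora1, 0.55 for Gdpd1 and 0.38 for Bcat1. Nipal1 and Arhgef3 were at or above their values without it, and the other 7 were below. At 12 and 24 h the covariate moved no effect by more than 0.0629. Measured against the median of genes with at least 5 CPM, the effects at 6 h ranged from 0.34 for Bcat1 to 1.13 for Tbc1d16, and at 24 h from 0.40 for Gdpd1 to 1.23 for Arhgef3. By that measure Bcat1 stood at 0.37, 0.34, 0.32 and 0.45 over the 4 times and Adora1 at 0.57, 0.52, 0.46 and 0.49. The time dependence of Chp1, Tbc1d16 and Gdpd1 passed with the share in the model (adjusted p = 0.00365, 0.0266 and 0.0103), beside 0.256% of all genes, and the 24 h minus 3 h difference then passed for Chp1 (-0.65, adjusted p = 0.00164) and Gdpd1 (-0.67, adjusted p = 0.00695), beside 0.215% of all genes. Tbc1d16 in vehicle and Chp1 in treated cells again changed over time (adjusted p = 0.00179 and 3.11e-08, beside 2.59% and 8.99% of all genes), and Ghr in vehicle did not pass (adjusted p = 0.368). Of the genes beside them, Tbc1d1 and Rab4a passed again at 3 h (adjusted p = 0.00117 and 0.00602), and of the 189 list genes 1 was called at 6 h, Arhgdib, which was lower (-0.72, adjusted p = 0.00297). At 12 h Nipa1 was lower (-0.68, adjusted p = 0.0469) and Pcca higher (0.29, adjusted p = 0.0243) in that fit. Within groups, the deviations of log2 CPM from the group mean over the 24 libraries had Pearson correlations with the log2 share of -0.859 for Gdpd1, -0.839 for Bcat1, -0.838 for Chp1, -0.793 for Adora1, -0.761 for Tbc1d16, -0.712 for Arl4d, -0.389 for Ghr, 0.06 for Arhgef3 and 0.316 for Nipal1. Both measures come from the same libraries and scaling, so this is a description. What sets the share was not tested.

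**Figure D3:**
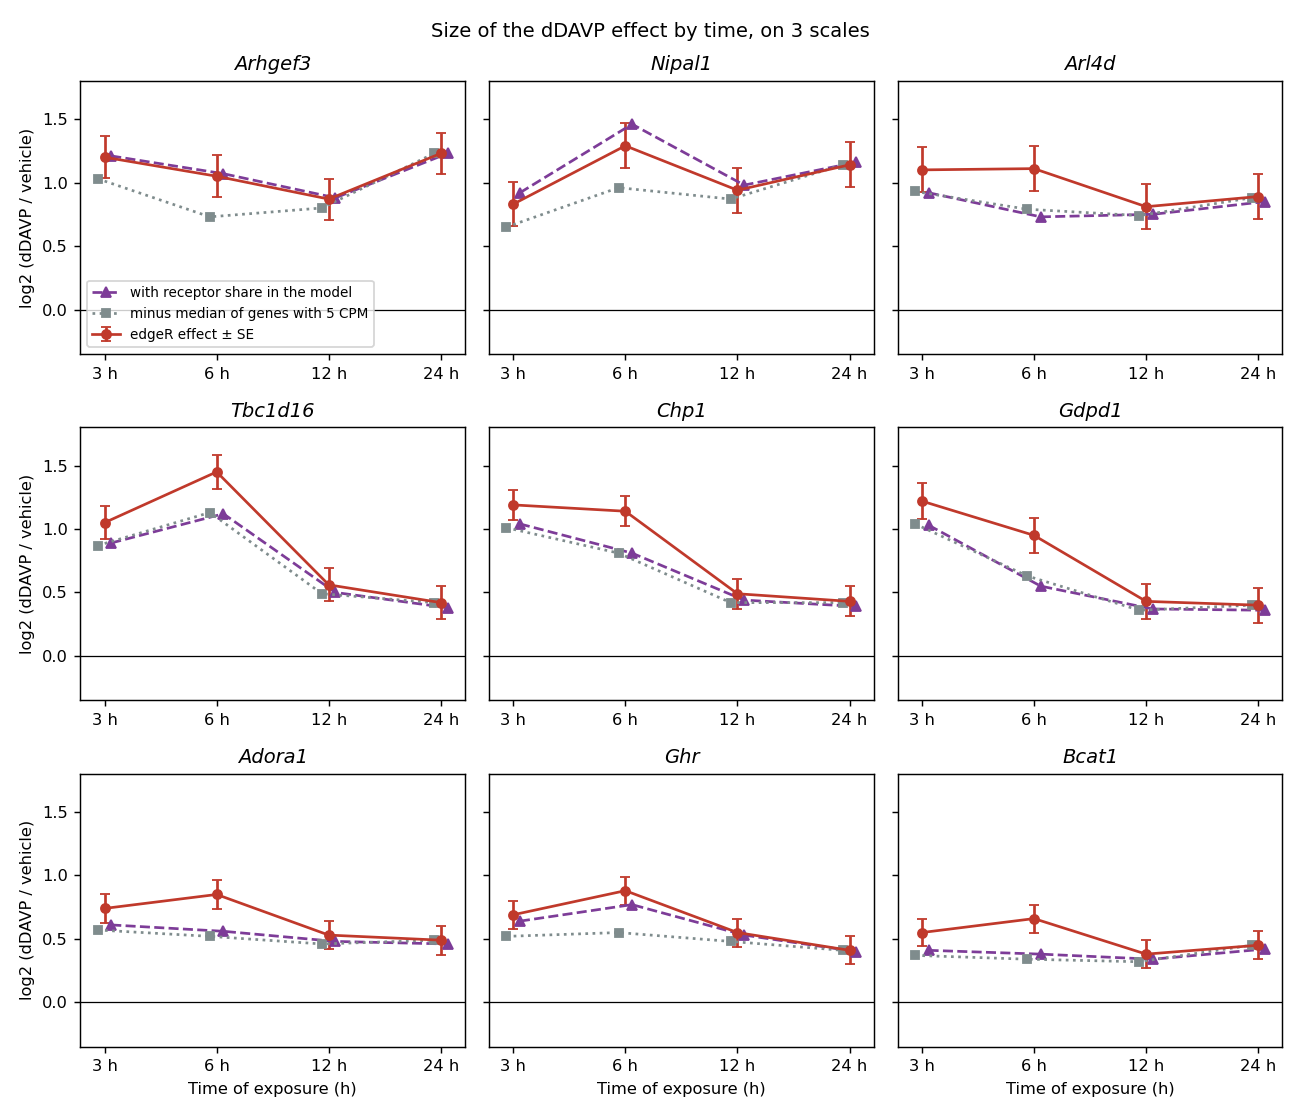
Log2 ratio of dDAVP over vehicle by time in hours for each gene, as the edgeR effect with its standard error. Beside it is the effect with the receptor share as a covariate. The last series is the edgeR effect without that covariate, minus the median effect of genes with at least 5 CPM. Arhgef3, Nipal1 and Arl4d stay between 0.65 and 1.46 at all times on every scale, while Tbc1d16, Chp1 and Gdpd1 end at 0.36 to 0.43 at 24 h.

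Levels of different genes can be compared only per length, in TPM. In vehicle the order was Chp1 (mean 16 TPM over 12 libraries), Adora1 (12.2 TPM), Bcat1 (10.7 TPM), Gdpd1 (6.18 TPM), Ghr (5.66 TPM), Arl4d (3.08 TPM), Tbc1d16 (2.21 TPM), Nipal1 (1.45 TPM) and Arhgef3 (1.22 TPM). In dDAVP cells the order was the same, with means of 23.9, 16.1, 12.6, 8.85, 6.78, 5.12, 3.44, 2.32 and 2.1 TPM. Vehicle ranges of neighbours in that order overlapped or touched except between Bcat1 and Gdpd1 and between Ghr and Arl4d. The 3 genes with the lowest levels, Arhgef3, Nipal1 and Tbc1d16, were thus among the 4 with the largest mean effects, and with 9 chosen genes this is a description only. TPM separates the treatments less cleanly than CPM: the lowest of 12 treated libraries lay above the highest of 12 vehicle libraries for Gdpd1 alone in TPM and for all 9 genes in CPM, where 46 of the tested genes (0.155%) did so. Compared within each time, dDAVP and vehicle libraries were apart in TPM for 6, 6, 6 and 7 of the 9 genes at 3, 6, 12 and 24 h, against all 9 in CPM. The share of all tested genes apart in TPM was not counted, so these TPM counts have no background beside them. Ghr overlapped in TPM at all 4 times, Bcat1 at 3, 6 and 12 h, Nipal1 at 3 and 12 h, Arhgef3 at 6 h and Tbc1d16 at 24 h. A single gene annotated as a miRNA, Gm24245, took 37.4 to 51.7% of all TPM in a library, and TPM carries no TMM scaling. From mean TPM the log2 ratio of dDAVP over vehicle at 6 h was 0.053 for Bcat1 and 0.96 for Tbc1d16, when the median over genes with at least 5 CPM was -0.22, and all 36 ratios over genes and times were above 0.

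**Figure D4:**
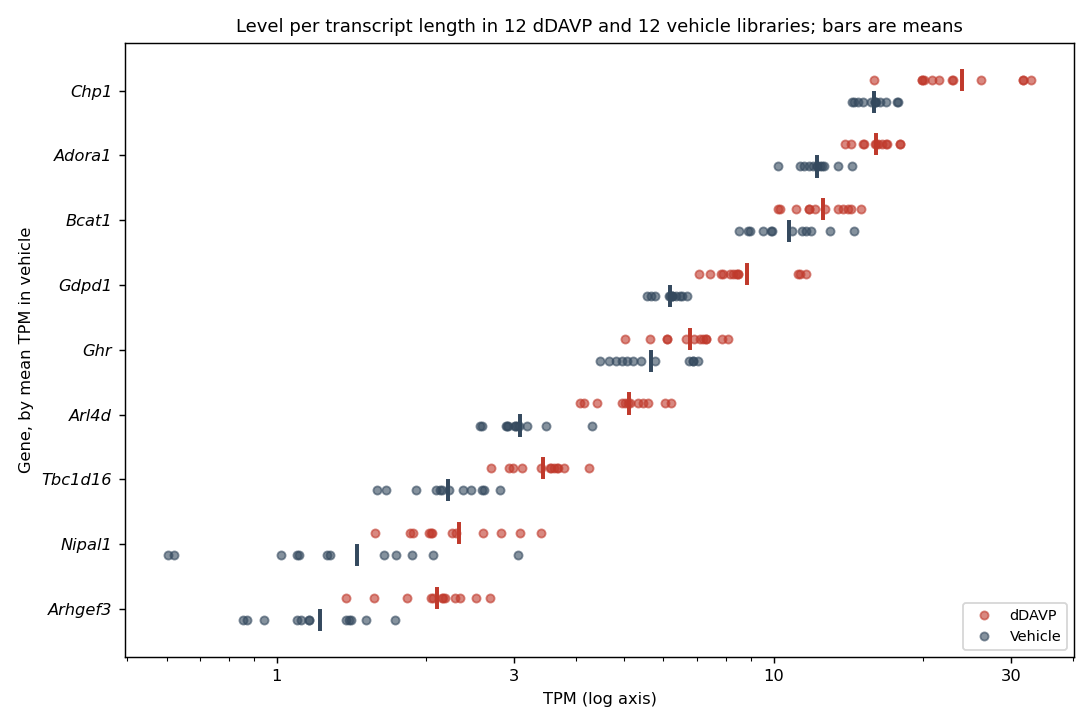
TPM of each gene in 12 dDAVP libraries (upper row of points) and 12 vehicle libraries (lower row) on a log axis, with bars at the means and genes ordered by their vehicle mean. Chp1 is highest at 23.9 TPM with dDAVP and 16 TPM with vehicle, Arhgef3 is lowest at 2.1 and 1.22 TPM, and the Nipal1 vehicle libraries spread from 0.604 to 3.06 TPM.

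Over the 8 group means of log2 CPM the 36 pairs of these genes had Pearson correlations of 0.805 to 0.978, a description of 8 points that share the split between dDAVP and vehicle by which the genes were chosen. On the deviations of the 24 libraries from their group means, which leave that split out, the same 36 pairs ran from -0.672, for Nipal1 with Arl4d, to 0.876, with a median of 0.311. Likeness to other genes was measured the same way over 10614 named genes with at least 5 CPM. The 2 genes most like Nipal1 were Sult1d1 (0.985) and Cited1 (0.979), and those most like Arhgef3 were Aqp2 (0.982) and B3gnt7 (0.979). Arl4d was followed by Baiap2l2 (0.977) and B3gnt7 (0.977), Gdpd1 by Sik1 (0.997), a kinase gene induced by cyclic AMP, and Ncoa2 (0.994), and Tbc1d16 by Muc20 (0.99) and Akr1c19 (0.987). Chp1 was most like Fubp1 (0.991) and Crabp2 (0.99), Ghr most like Pdcd4 (0.994) and Akr1c19 (0.987), Adora1 most like Nfxl1 (0.988) and Snx13 (0.987), and Bcat1 most like Tnfrsf21 (0.989) and Desi1 (0.983). These names depend on the measure. With Pearson correlation over the 24 libraries both genes stayed the same for Arhgef3 and Tbc1d16 and at least 1 changed for the other 7, and with Spearman correlation over the 8 group means at least 1 changed for all 9.

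Read against the threshold for single genes, all 9 were called higher at 3 h, all 9 at 6 h, 3 at 12 h and 3 at 24 h, beside 0.467%, 20.9%, 0.074% and 0.0807% of all genes called higher. With the receptor share in the model all 9 were called at each time, beside 0.619%, 0.279%, 0.212% and 0.252% of all genes. With only genes of at least 5 CPM tested the counts were 8, 9, 9 and 9, beside 210, 722, 83 and 81 of 13123 genes called higher. The replicate number as a block gave 9, 9, 5 and 3, beside 164, 6897, 35 and 26 of 29743 genes called higher. Without the 2 libraries of highest receptor share 8, 9, 1 and 5 were called, beside 93, 7589, 13 and 40 of 29786. DESeq2 gave 8, 9, 2 and 3, beside 115, 5114, 18 and 21 of 29743. By limma on log2(TPM + 1) 5, 5, 2 and 3 were called, beside 58, 79, 24 and 22 of 29743 genes called higher. RLE size factors gave 8, 9, 1 and 2, beside 67, 3414, 9 and 15 of 29743. No filter on low counts gave 8, 9, 2 and 2, beside 98, 1489, 16 and 16 of 52264. Leaving out 1 library gave 7 to 9 at 3 h, 8 to 9 at 6 h, 0 to 8 at 12 h and 2 to 4 at 24 h. Over those fits 63 to 212, 84 to 13489, 10 to 62 and 14 to 36 of all genes were called in either direction. The 12 h count was 0 without dDAVP replicate 1 or 2 of 12 h or dDAVP replicate 3 of 3 h, and 8 without vehicle replicate 2 of 12 h. These counts repeat the choice of the genes and are given as a description. At 12 h the called genes were Nipal1, Arhgef3 and Ghr, and at 24 h they were Nipal1, Arhgef3 and Arl4d. Ghr at 12 h and Arl4d at 24 h lay just under the threshold, and passed in 5 and 10 of 32 alternatives. At 12 h Nipal1 passed in 27 of 32 and Arhgef3 in 24 of 32. At 24 h they passed in 32 and 31, with Arhgef3 missing under limma on log2(TPM + 1). Such tallies show how far the calls depend on processing. They are no test of the rise, since the genes were chosen by it. In libraries of whole dishes, a change in the RNA of each cell and a change in the number of cells that carry it cannot be told apart.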

How the data were processed

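RNA of 24 libraries was copied to cDNA with SMART-Seq HT and made into Nextera libraries, per the labels. The authors deposited estimated counts per Ensembl gene, without normalization, and TPM per gene, scaled to a fixed total in each library. The submitters' processing notes name Salmon 0.14.10 and GRCm38.p6. The way transcripts were summed to genes and the use of strand are not given in the sources seen.

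After rounding of the estimated counts to whole numbers, edgeR 4.0.16 in R 4.3.3 was run with TMM scaling (factors 0.814 to 1.326) on 29743 of 54432 genes kept by filterByExpr, with 1 mean for each of 8 groups. Tests were quasi-likelihood F tests, with Benjamini-Hochberg adjustment over all genes tested and a threshold of 0.05. CPM are TMM-scaled, and SE and 95% intervals come from the fit. The fit was also run on simulated counts with known changes, in which all other genes had the same mean in all libraries. Those counts held no shift in library composition with treatment, so that run does not bear on the receptor share. Symbols came from GENCODE M21 (54346 identifiers named, 86 not) and promoters from RefSeq. Figures used matplotlib 3.10.9.

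The members and the pathway lists were chosen with earlier results of these data known. Named genes were all 9 members, Aqp2, up to 4 called genes of smallest p and up to 4 nearest relatives per list, and the 2 most alike genes per member. The lower genes of growth hormone signalling at 6 h were named as well. Alternatives were RLE size factors, DESeq2 1.42.0, no filter, a filter of 5 CPM in a group, the replicate number as a block, the log2 receptor share as a covariate, limma 3.58.1 on log2(TPM + 1), and each library left out in turn. Added after seeing the data were a fit without the 2 libraries of highest receptor share and TPM rescaled without Gm24245. Chi-square statistics between the 24 replicate pairs within groups ran from 2.52 to 36.4 per gene, so no library repeated another of its own group. Libraries of different groups were not compared in this way. Some results of the pathway lists are not reported here.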

Additional observations from a re-analysis of the deposited data

Results flagged for a closer look

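The dDAVP effect differed between the 4 times for Tbc1d16 (edgeR F test of the treatment by time interaction, adjusted p = 0.03), with log2 effects of 1.05, 1.45, 0.56 and 0.42 at 3, 6, 12 and 24 h. The same test passed for Chp1 (adjusted p = 0.0328), with log2 effects of 1.19, 1.14, 0.49 and 0.43. In CPM every dDAVP library of both genes stayed above every vehicle library of its time, while in TPM Tbc1d16 overlapped at 24 h, with a lowest dDAVP library of 2.7 TPM and a highest vehicle library of 2.81 TPM.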

How the results depend on the processing

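All 36 effects of the 9 genes kept their direction in the 32 alternatives, and 35 of the 36 were smallest under limma on log2(TPM + 1), down to 0.05 for Bcat1 at 6 h. That setting, called TPM in the lists below, adds 1 before the log, which shrinks ratios of genes at a few TPM. At 24 h it gave 1.02 for Nipal1 and 0.69 for Arhgef3, against 1.75 and 1.14 from mean TPM. For Bcat1 at 6 h mean TPM gave 0.053. The 24 h minus 3 h difference, whose interval holds 0 in the genes named next, turned direction for Arhgef3 with RLE (-0.03), DESeq2 (-0.03), no filter (-0.06) and 4 single libraries left out (0, -0.05, -0.13 and -0.05, with a range of -0.13 to 0.19 over all 24). It turned for Bcat1 with the 5 CPM filter (0.06), the receptor share (0.01), TPM (0.29) and without the 2 libraries of highest share (0.01), and in TPM for Arl4d (0.02), Ghr (0.14) and Adora1 (0.05). The time dependence of Tbc1d16 passed in 12 of 32 alternatives (adjusted p 0.00534 to 0.661) and that of Chp1 in 9 of 32 (0.000458 to 0.391). Chp1 over time in dDAVP cells passed in 31 of 32, all but RLE (0.109), and Tbc1d16 over time in vehicle in 31, all but TPM (0.0756). Removing Gm24245 before TPM was rescaled turned no ratio of a member's TPM.

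Counts of all genes called were 144, 11320, 23 and 25 at 3, 6, 12 and 24 h, 102 for time dependence, 6 for 24 h minus 3 h, 2995 over time in vehicle and 677 in dDAVP cells. In the same order, those that moved by over 1.5 times were 70, 10 and 15 (3, 12 and 24 h), 1, 0, 738 and 200 with RLE, where 8, 9, 1 and 2 of the 9 members passed at 3, 6, 12 and 24 h; 4932 at 6 h, 207, 3 and 1932 with no filter; 267, 2500, 93 and 97, then 67, 36 and 3166 (dDAVP cells) with the 5 CPM filter; 100 at 6 h, 88, 104, then 64, 771 and 2675 with the receptor share; 6525 at 6 h, 5, 1833 and 1391 with TPM; and 15 at 12 h, 41 at 24 h, 407 and 2580 without the 2 libraries of highest share. With the replicate block, whose numbers correlate between treatments from -0.437 to 0.613 and over 0.1 in 5 of 12 pairs, so that they do not pair the samples, the counts were 170, 13144, 37, 27, 57, 9, 4875 and 921. Leaving out single libraries gave 63 to 212, 84 to 13489, 10 to 62, 14 to 36, 1 to 249, 0 to 12, 334 to 10984 and 280 to 2012. The 6 h count fell to 84 without dDAVP replicate 2 of 6 h. The causes were not tested. At 24 h minus 3 h under RLE edgeR called 0 genes and 1162 had an unadjusted p under 0.05, while DESeq2 called 8. Depth limits the lowest genes, Nipal1 with 78 and Arhgef3 with 100 counts in their lowest libraries.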

Other observations

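Estimated counts and TPM of a gene keep a fixed ratio across libraries only where the transcript length used for it stays the same. A shift in the mix of its transcripts is 1 way, not the only way, for that length to change. After scaling to the other genes of a library, the estimated counts per TPM of Nipal1 differed by 2.6 times between the library with the highest and that with the lowest ratio, against a median of 1.15 times over 11755 genes with at least 50 counts in every library. In vehicle its TPM spread 5.07 times between the lowest and the highest library and its CPM 1.52 times. The same ratio differed by 1.44 times for Ghr, 1.26 times for Arhgef3, 1.23 times for Bcat1, 1.22 times for Tbc1d16, 1.05 times for Adora1, 1.03 times for Chp1, and 1.01 times for Arl4d and Gdpd1, which have 1 annotated transcript each. Its dDAVP median over its vehicle median was 1.05 for Nipal1 and 1.07 for Ghr. Which transcripts were present, and what moved these ratios, was not tested.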
